A study of Mus musculus with 18 samples.

Results

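Fos, Fosb, Jun, Junb, Egr1, Ier2 and Ier3 are immediate early response genes, and their transcripts were followed in mouse embryonic stem (ES) cells through the first 8 days without leukaemia inhibitory factor (LIF), the cytokine that holds these cells undifferentiated. The 7 genes were taken by name from the 30848 named lines of the authors' expression matrix, and all 7 were among the 16110 genes tested here. They were chosen by the falls of Fos and Egr1 from day 0 to day 2, by the level of Egr1 at day 6 and by the rise of Ier3 at day 6, all read as means of both cell lines, so the changes from day 0 are given as a description with standard errors and no test. The tests that follow compare the lines with each other, day 8 with day 4, and genes outside the 7.

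Immediate early genes are switched on within minutes of a signal at the cell surface, because the proteins that activate them are already present and need only be modified. The classical route runs from a growth factor receptor through the kinase ERK to factors of the ELK family that sit with serum response factor (SRF) on CArG boxes, and cyclic AMP response elements (CREs) add a further input. FOS-family proteins pair with JUN-family proteins to form the transcription factor AP-1, EGR1 is a zinc finger transcription factor, IER2 is a nuclear protein induced alongside them, and IER3 is linked to cell survival and is also an NF-kB target. In ES cells LIF signals through both STAT3 and ERK.

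The cells were of the ES lines AB2.2 and PL2F8, sampled at days 0, 2, 4, 6 and 8 after LIF removal, with no further treatment or genotype given in the labels and the same removal of LIF in both lines. Total RNA went onto 18 Illumina bead arrays, 2 per line and day up to day 6 and 1 per line at day 8. All 9 pluripotency markers examined, among them Pou5f1, Sox2 and Nanog, were detected on 17 of the 18 arrays and 8 of them on the PL2F8 array of day 8. Nothing in the labels tells if paired arrays came from separate cultures, so the p-values reflect the scatter between these samples alone, and that scatter may be technical. RNA of whole cultures cannot tell fewer expressing cells apart from less RNA per cell.

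The PL2F8 arrays of days 6 and 8 stood apart. Their mean deposited signals were 137.4, 134.8 and 60.1, against 283.6 to 492.7 on the other 15 arrays, and 20.9% of probes were detected on the day 8 array against 41.9% to 45% on those 15. Quantile normalization brings these arrays to the common range, whereas scaling by the median leaves the median gene of PL2F8 below that of AB2.2 by 1.27 on the log2 scale at day 6 and by 2.13 at day 8. Directions of PL2F8 at these days are therefore given with both where they differ. Levels below are normalized log2 values of 1 probe per gene after background correction, and the level of one gene cannot be set against that of another because each probe has its own brightness.

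The stretch of 140 bases just before the annotated start site is shown for the 5 genes with a RefSeq promoter entry (GRCm38.p6), because Fos, Fosb and Junb, and to a lesser degree Jun, fell together at day 2 while Ier3 did not. Capitals mark matches, on either strand, to the CArG box (CC, then 6 bases of A or T, then GG), the CRE (TGACGTCA), the short form of the CRE (TGACG), the AP-1 site (TGANTCA), the STAT site (TTCNNNGAA) and the TATA box (TATAAA). The full CRE contains the short CRE. Egr1 and Ier2 are named only.
Fos, chr12:85473750-85473889, plus strand: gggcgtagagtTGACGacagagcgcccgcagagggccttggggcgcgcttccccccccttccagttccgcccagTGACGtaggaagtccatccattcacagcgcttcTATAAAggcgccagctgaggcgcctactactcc
Fosb, chr7:19310046-19310185, minus strand: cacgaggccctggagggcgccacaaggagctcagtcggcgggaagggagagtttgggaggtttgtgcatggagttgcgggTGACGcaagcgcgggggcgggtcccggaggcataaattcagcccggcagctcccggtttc
Junb, chr8:84978749-84978888, minus strand: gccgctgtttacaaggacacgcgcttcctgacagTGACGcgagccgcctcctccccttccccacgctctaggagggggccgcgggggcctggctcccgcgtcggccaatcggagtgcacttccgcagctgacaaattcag
Jun, chr4:95052223-95052362, minus strand: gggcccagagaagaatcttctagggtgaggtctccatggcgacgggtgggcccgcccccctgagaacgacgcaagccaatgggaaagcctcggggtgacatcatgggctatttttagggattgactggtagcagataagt
Ier3, chr17:35821573-35821712, plus strand: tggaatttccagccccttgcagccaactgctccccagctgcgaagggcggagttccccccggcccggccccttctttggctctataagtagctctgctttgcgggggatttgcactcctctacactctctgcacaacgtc

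The Fos window holds the short CRE at 129 and at 66 bases before the start site and a TATA box at 33. The Fosb window holds a short CRE at 60 bases and the Junb window one at 106 bases before the start site, and the Jun and Ier3 windows hold none of the 6 motifs. Over windows of 300 bases, which reach from 250 bases before to 50 after the start, the short CRE was present in 20.8% of 32851 mouse promoters, the CRE in 1.79%, the CArG box in 1.63%, the AP-1 site in 7.81%, the STAT site in 8.3% and the TATA box in 13.6%. These matches are descriptions of letters, and a window without a match says nothing of a factor that may act elsewhere.

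Fos, the founding member of its family (chr12:85473890-85477274), was high in both lines at day 0 and far lower at day 2. In AB2.2 it was partly restored by day 8, and in PL2F8 its later course depends on the scaling. In AB2.2 its log2 levels were 9.66 and 9.68 at day 0, 6.03 and 6.03 at day 2, 6.52 and 6.65 at day 4, 7.90 and 7.83 at day 6, and 8.13 at day 8. In PL2F8 they were 11.84 and 11.87 at day 0, 6.06 and 5.77 at day 2, 7.87 and 7.66 at day 4, 9.61 and 9.61 at day 6, and 9.59 at day 8. Both lines thus started apart and met at day 2, the one day at which their arrays overlapped. With median scaling the PL2F8 changes of Fos from day 0 were -6.34 at day 2, -4.61 at day 4, -4.23 at day 6 and -6.43 at day 8, so the day 8 level was then as low as that of day 2. From day 0 to day 2 the level fell by 3.64 ± 0.10 (SE) in AB2.2, or 12.5-fold, and by 5.94 ± 0.10 in PL2F8, or 61.4-fold, on the log2 scale of the fit.

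Fosb encodes a close relative of FOS (chr7:19302696-19310118), and it was measurable mainly at day 0. Its levels at day 0 were 5.59 and 5.79 in AB2.2 and 7.24 and 7.15 in PL2F8. On none of the 8 arrays of days 2 and 4 was it detected. The mean of both lines at day 2 was lower than at day 0 by at least 3.2-fold, at least 1.9-fold in AB2.2 and at least 5.5-fold in PL2F8. These bounds set each undetected array at the lowest signal of any detected probe on it, or at the probe's own signal where that was higher. At days 6 and 8 it was detected on 1 of 2 AB2.2 arrays and 1 of 2 PL2F8 arrays of day 6 and on the AB2.2 array of day 8, with levels up to 5.12, so its partial return was at the edge of detection.

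Jun, the JUN-family partner after which AP-1 was largely defined (chr4:95049036-95052222), took a different course in each line. In AB2.2 its levels were 5.53 and 5.59 at day 0, 5.16 and 5.14 at day 2, 6.48 and 6.55 at day 4, 7.06 and 6.93 at day 6, and 7.12 at day 8. In PL2F8 they were 6.08 and 6.22 at day 0, 4.43 and 4.62 at day 2, 4.96 and 4.94 at day 4, 6.59 and 6.34 at day 6, and 5.25 at day 8, and the gene was not detected at day 2 or day 8. In AB2.2 all arrays from day 4 on lay above day 0, while in PL2F8 only the day 6 arrays did so. The AB2.2 change from day 0 was 1.44 ± 0.10 at day 6 and 1.56 ± 0.12 at day 8. The PL2F8 change at day 6 was 0.31 ± 0.10, and it turned to -1.04 with median scaling.

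Junb encodes a JUN-family protein with weaker activating properties than JUN (chr8:84976909-84978748). In AB2.2 its levels were 8.42 and 8.39 at day 0, 6.58 and 6.62 at day 2, 7.48 and 7.43 at day 4, 7.86 and 7.90 at day 6, and 7.55 at day 8. In PL2F8 they were 8.80 and 8.81 at day 0, 6.12 and 6.07 at day 2, 7.25 and 7.15 at day 4, 8.87 and 8.92 at day 6, and 9.28 at day 8. The course resembled that of Fos, with its lowest levels at day 2 in each line. The fall to day 2 was 3.5-fold in AB2.2 and 6.54-fold in PL2F8. In PL2F8 the change from day 0 at day 8 was 0.47 ± 0.08, but -3.64 with median scaling, so its late level in that line depends on how the dim arrays are scaled. A further Junb probe was detected on 1 of 18 arrays and was not used.

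Egr1 (chromosome 18) fell steeply by day 2 and stayed far below its day 0 level. In AB2.2 its levels were 12.33 and 12.30 at day 0, 8.27 and 8.29 at day 2, 9.06 and 8.91 at day 4, 8.79 and 8.68 at day 6, and 9.09 at day 8. In PL2F8 they were 13.50 and 13.46 at day 0, 8.73 and 8.48 at day 2, 7.56 and 7.63 at day 4, 8.12 and 8.13 at day 6, and 9.07 at day 8. No array after day 0 came within 3 log2 units of its own line's day 0 arrays. The AB2.2 arrays were lowest at day 2. The PL2F8 arrays were lowest at day 4 with quantile normalization, but with median scaling the Egr1 changes from day 0 in that line were -4.87, -6.21, -7.05 and -8.22 at days 2, 4, 6 and 8, lowest at day 8. At day 4 the level was 10.1-fold below day 0 in AB2.2 and 59.1-fold below it in PL2F8.

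Ier3 (chr17:35821713-35822911) was the one gene of the 7 with clear signal that did not fall in the mean of both lines at day 2. In AB2.2 its levels were 9.44 and 9.42 at day 0, 9.94 and 9.91 at day 2, 9.52 and 9.49 at day 4, 10.63 and 10.67 at day 6, and 9.92 at day 8. In PL2F8 they were 9.29 and 9.38 at day 0, 9.14 and 9.18 at day 2, 10.89 and 10.94 at day 4, 11.63 and 11.61 at day 6, and 12.15 at day 8. AB2.2 peaked at day 6 and returned towards its starting level, whereas in PL2F8 the levels from day 4 on lay above all earlier arrays of that line. The PL2F8 change from day 0 was 1.58 ± 0.07 at day 4. At day 8 it was 2.81 ± 0.08, or -1.09 with median scaling.

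Ier2 (chr8:84661331-84662852) was near the limit of the array. It was detected on 2 of the 18 arrays, those of PL2F8 at day 2, where its levels were 5.0 and 5.04. On the other 16 arrays its normalized value lay between 4.34 and 4.65, without signal above the negative controls. Its value at day 2 in PL2F8 was at least 1.2-fold higher than at day 0, and no fold can be given for its other changes from day 0 within a line.

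The 10 line and day means of each gene can be put in order and their gaps set against the pooled SD of its replicates. For Fos (SD 0.10) the order ran from PL2F8 day 0 (11.85) to PL2F8 day 2 (5.92), and AB2.2 day 0, PL2F8 day 6 and PL2F8 day 8 lay within 0.06 and 0.02 of each other. For Egr1 (SD 0.08) both day 0 groups led by 3.22 over the next, AB2.2 day 8 and PL2F8 day 8 were 0.02 apart, and PL2F8 day 4 was last (7.60). For Jun (SD 0.09) AB2.2 at days 8, 6 and 4 led, AB2.2 day 4 and PL2F8 day 6 were 0.05 apart, and PL2F8 day 2 was last. For Junb (SD 0.04) the 3 highest groups were PL2F8 at days 8, 6 and 0, the first and second of them from dim arrays, and the 2 day 2 groups were lowest. For Ier3 (SD 0.03) PL2F8 at days 8, 6 and 4 led, AB2.2 at days 2 and 8 were 0.01 apart, and PL2F8 day 2 was lowest. The places of PL2F8 at days 6 and 8 hold for quantile normalization.

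**Figure D1:**
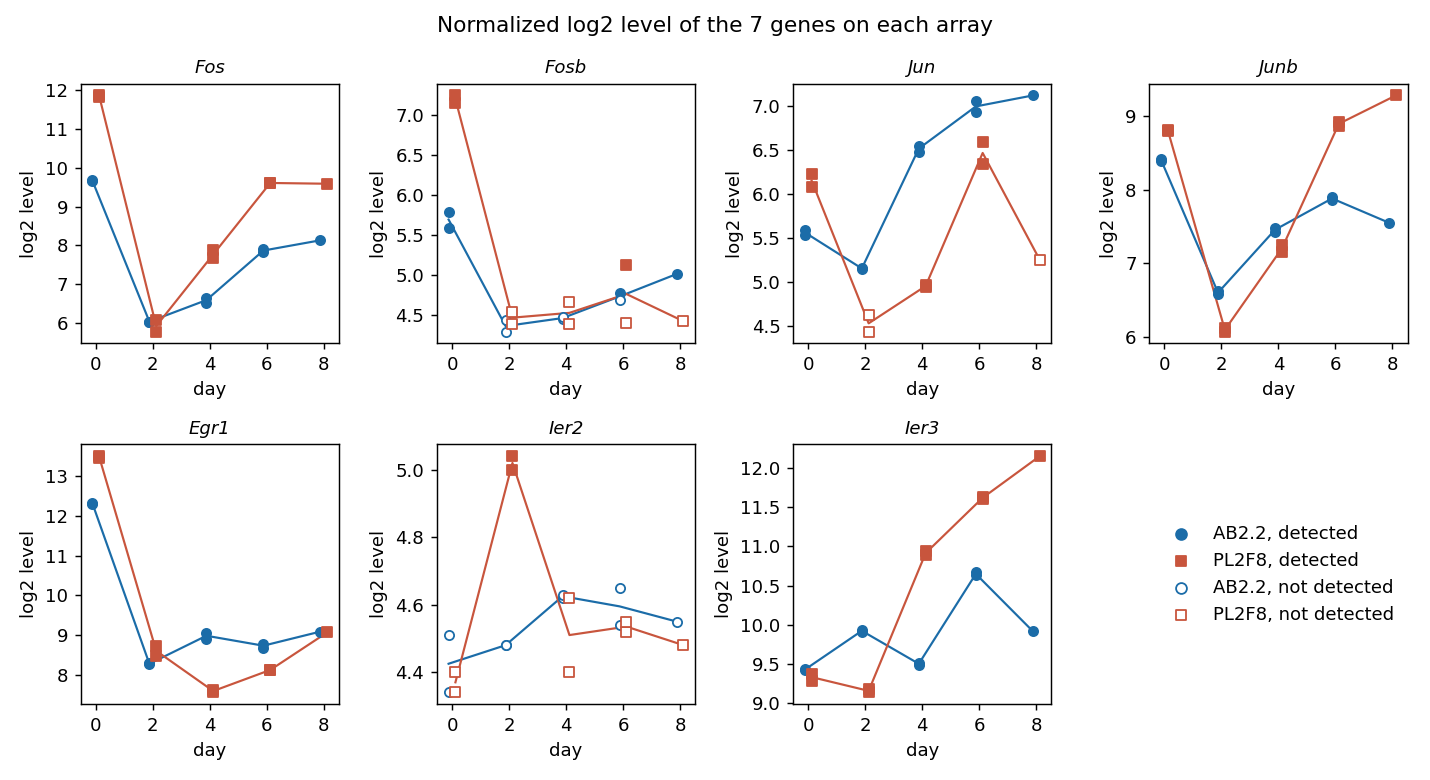
Normalized log2 level of each of the 7 genes on every array (vertical axis, its own scale for each gene) against day after LIF removal, with circles for AB2.2, squares for PL2F8, open symbols for arrays on which the probe was not detected and lines through the group means. Fos, Fosb, Junb and Egr1 drop from day 0 to day 2 in both lines, and Ier3 of PL2F8 lies between 10.89 and 12.15 from day 4 on with quantile normalization.

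**Figure D2:**
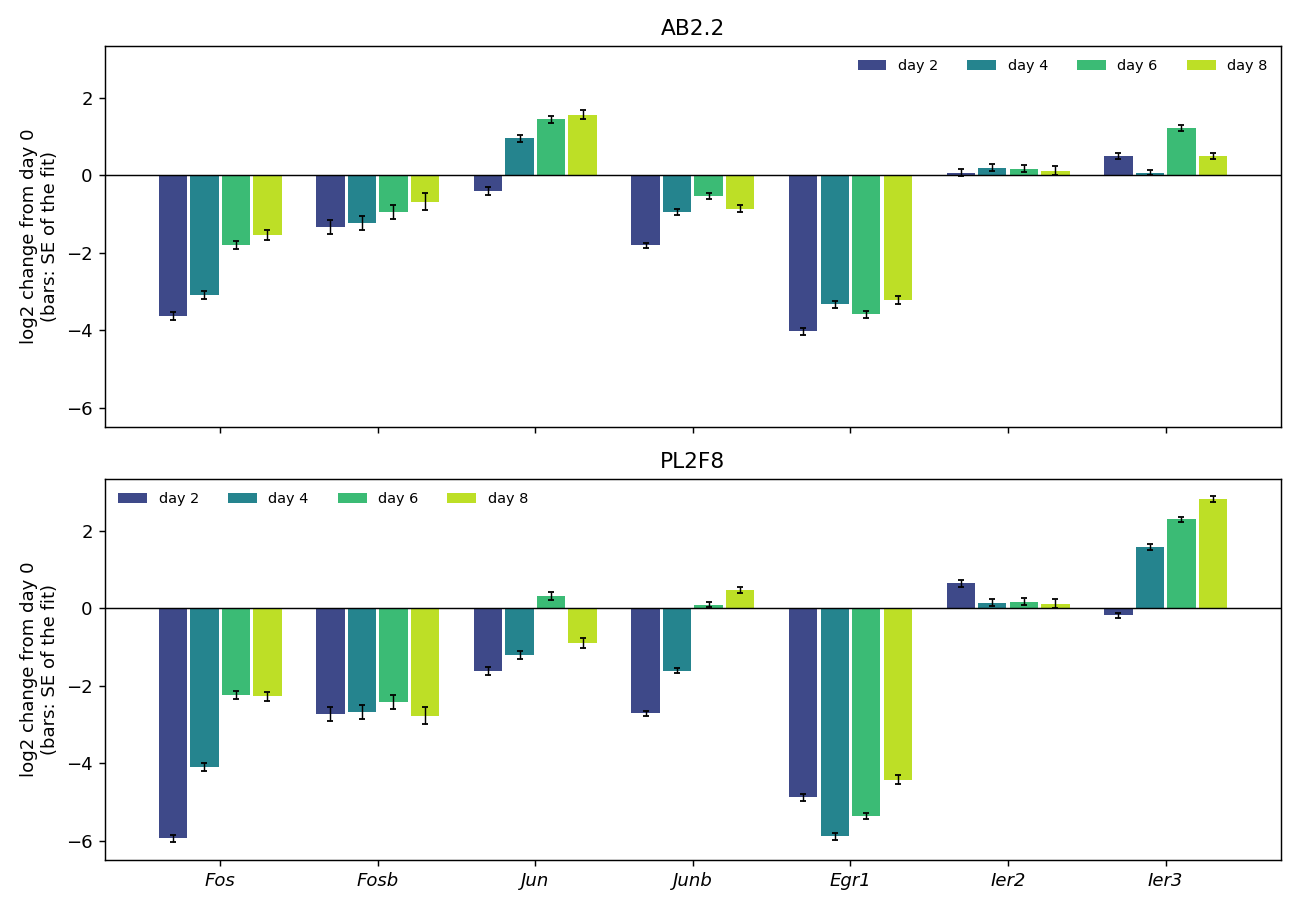
Log2 change of each gene from its own line's day 0 at days 2, 4, 6 and 8, with AB2.2 above and PL2F8 below and error bars for the standard error of the fit. The day 2 bar of Fos reaches -3.64 in AB2.2 and -5.94 in PL2F8, and the bars of Egr1 stay between -3.22 and -5.88, while bars of Fosb, Jun and Ier2 include arrays on which the probe was not detected and the upward PL2F8 bars of Jun at day 6, Junb at days 6 and 8 and Ier3 at day 8 turn downward with median scaling.

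Before LIF was withdrawn, PL2F8 had more Fos, Fosb, Jun, Junb and Egr1 transcript than AB2.2. At day 0, 5 of the 7 genes were called higher in PL2F8 and none lower (adjusted p under 0.05, moderated t-statistics of limma with Benjamini-Hochberg adjustment over all genes), when 14.3% of all genes were called higher and 13.1% lower. Fos was higher by 2.18 ± 0.10 on the log2 scale, or 4.54-fold (adjusted p = 4.7e-08). Fosb was higher by 1.5 ± 0.18 (adjusted p = 7.3e-05) and Egr1 by 1.17 ± 0.09 (adjusted p = 2.5e-06). Jun was higher by 0.59 ± 0.10 (adjusted p = 7.9e-04) and Junb by 0.40 ± 0.07 (adjusted p = 9.9e-04). For each of these 5 genes both PL2F8 arrays lay above both AB2.2 arrays. Ier3 differed by -0.10 ± 0.07 (adjusted p = 0.329), and Ier2 was not detected in either line.

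At day 2 the difference had gone for Fos, at -0.11 ± 0.10 (adjusted p = 0.47), and Fosb was not detected in either line. Egr1 was called higher in PL2F8 by 0.32 ± 0.09 (adjusted p = 0.022), against 11.8% of all genes. Ier2 was at least 1.2-fold higher there. That is a description only, because Ier2 passed the filter of detection on at least 2 arrays through these PL2F8 arrays alone. The Egr1 call ended without the first (0.31, adjusted p = 0.0966) or the second (0.33, adjusted p = 0.0779) AB2.2 array of day 2, and without the first PL2F8 array of that day (0.19, adjusted p = 0.212). Jun, Junb and Ier3 were called lower in PL2F8, against 11.9% of all genes. Jun was lower by at least 1.3-fold (adjusted p = 5.9e-04), Junb by 0.50 ± 0.07 on the log2 scale (a difference of -0.50, adjusted p = 2.1e-04) and Ier3 differed by -0.77 ± 0.07 (adjusted p = 4.8e-06).

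At day 4, Fos and Ier3 were called higher in PL2F8, against 21.3% of all genes, and Jun, Junb and Egr1 were called lower, against 20.6%. Fos differed by 1.19 ± 0.10 (adjusted p = 1.4e-06) and Ier3 by 1.41 ± 0.07 (adjusted p = 8.1e-09). Jun differed by -1.57 ± 0.10 (adjusted p = 9.1e-08), Egr1 by -1.39 ± 0.09 (adjusted p = 1.4e-07) and Junb by -0.26 ± 0.07 (adjusted p = 0.00861). The Junb difference was not called in the authors' matrix values (-0.16, adjusted p = 0.0823), where Junb is a mean of 2 probes, nor without the first AB2.2 array of day 4 (-0.24, adjusted p = 0.0567) or the second PL2F8 array of that day (-0.21, adjusted p = 0.0772). The lines had therefore exchanged places for Egr1 and Jun since day 0, and Fos and Jun, which encode partners, differed between the lines in opposite directions.

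At days 6 and 8 the sign of several differences depended on the scaling of the dim PL2F8 arrays. With quantile normalization Fos, Junb and Ier3 were called higher in PL2F8 at day 6, against 30.7% of all genes, by 1.74 ± 0.10, 1.01 ± 0.07 and 0.97 ± 0.07, and with median scaling these were -0.41, -1.11 and -1.09. Jun and Egr1 were called lower, against 34.1% of all genes, by -0.53 ± 0.10 and -0.61 ± 0.09. At day 8 Fos, Junb and Ier3 were again called higher, against 30.4% of all genes, by 1.46 ± 0.14, 1.73 ± 0.10 and 2.23 ± 0.09, and median scaling gave -2.77, -2.40 and -1.69. Jun was called lower at day 8, against 39.2% of all genes, and was at least 1.2-fold lower because it was not detected on that PL2F8 array. The lower values of Jun at both days and of Egr1 at day 6 were also lower with median scaling. That scaling lowers the median gene of PL2F8 at these days, so it could hardly have turned them and is no test of their direction. Egr1 at day 8 differed by -0.02 ± 0.13 (adjusted p = 0.878) with quantile normalization and by -4.12 (adjusted p = 7.9e-16) with median scaling. Fosb at day 8, not detected on the PL2F8 array, was not called with quantile normalization (adjusted p = 0.0555) and was called lower with median scaling (adjusted p = 0.00527).

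**Figure D3:**
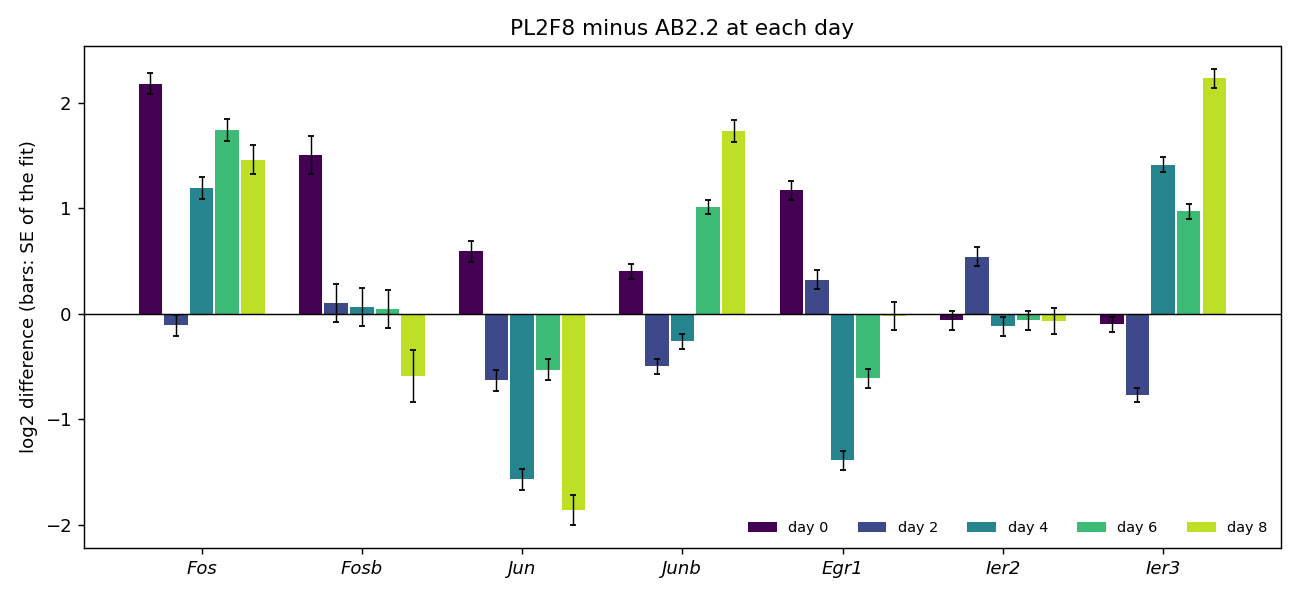
PL2F8 minus AB2.2 in log2 level for each gene at days 0 to 8, with error bars for the standard error of the fit. Fos, Fosb, Jun, Junb and Egr1 stand above 0 at day 0, Jun and Egr1 lie below it at days 4 and 6, and the upward day 6 and day 8 bars of Fos, Junb and Ier3 point downward with median scaling.

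Averaged over the 5 days, Fos (1.29 ± 0.05), Ier3 (0.75 ± 0.03), Junb (0.48 ± 0.03) and Fosb (0.22 ± 0.09) were called higher in PL2F8, against 34.0% of all genes, and Jun (-0.80 ± 0.05) and Egr1 (-0.11 ± 0.04) lower, against 37.3%. The directions for Fos, Junb and Ier3 turned with median scaling (-0.03, -0.83 and -0.54), and that for Junb also without the 3 dim arrays (-0.12, adjusted p = 0.0261). The Egr1 mean was at the threshold (adjusted p = 0.0497), and the call ended on 13 of the 18 occasions when 1 array was left out. The Fosb call (adjusted p = 0.0374) ended on 9 of them. Without either day 8 array, and so without day 8, the means were 0.16 for Junb, 0.38 for Ier3, 0.43 for Fosb and -0.53 for Jun. Fosb and Jun enter these means with days on which they were not detected.

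The course over days differed between the lines for all 7 genes (moderated F test of the line by day interaction, adjusted p from 2.1e-09 for Ier3 to 0.00171 for Ier2), but so did that of 80.6% of all genes. Ier2 passed the detection filter only through the PL2F8 arrays of day 2, so its call is not independent of the filter. The fall to day 2 was deeper in PL2F8 by 2.30 ± 0.14 log2 units for Fos (a difference of -2.30, adjusted p = 2.4e-06) and by 0.85 ± 0.13 for Egr1 (a difference of -0.85, adjusted p = 0.00139). For Egr1 the gap widened to -2.55 ± 0.13 at day 4 (adjusted p = 8.5e-08). For Jun it was -2.16 ± 0.14 at day 4 (adjusted p = 5.1e-07), where AB2.2 had risen and PL2F8 had fallen. For Ier3 the day 2 change was 0.50 ± 0.07 in AB2.2 and -0.18 ± 0.07 in PL2F8, a difference of -0.67 ± 0.09 (adjusted p = 7.8e-04).

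The changes that chose the genes were those from day 0 to days 2 and 6, but Ier3 was chosen as a gene that rises, so its later rise is not independent of the choice. From day 4 to day 8, with quantile normalization, 5 of the 7 genes were called higher in the mean of both lines, Ier3 among them, when 26.4% of all genes were, and with median scaling none of those 5 was called higher. Fos was higher by 1.68 ± 0.09 (adjusted p = 9.5e-09), Junb by 1.09 ± 0.06 (adjusted p = 1.3e-08), Ier3 by 0.82 ± 0.06 (adjusted p = 9.8e-08), Egr1 by 0.79 ± 0.08 (adjusted p = 2.3e-06) and Jun by 0.46 ± 0.08 (adjusted p = 4.5e-04). In AB2.2 alone, without the dim PL2F8 arrays, day 8 is 1 array, so only sizes are given. The changes were 1.55 for Fos, 0.60 for Jun, 0.55 for Fosb, 0.41 for Ier3, 0.11 for Egr1 and 0.09 for Junb. With median scaling, under which the median of all genes itself moved by -0.86, the means of both lines were -0.02 for Fos, -0.63 for Junb, -0.92 for Egr1 and -0.85 for Ier3, Jun was not called (0.24, adjusted p = 0.0748) and Fosb was called higher (0.35, adjusted p = 0.00936). Jun was not detected on the PL2F8 array of day 8, nor Fosb on any array of day 4. Fos and Jun were thus higher at day 8 than at day 4 on AB2.2 arrays of ordinary brightness, with 1 array at day 8. The calls in the mean of both lines depend on the dim arrays.

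Across the 10 group means the 7 genes did not move as 1 block. Pearson's r was 0.92 between Fosb and Egr1, 0.88 between Fos and Junb, 0.78 between Fos and Fosb and 0.70 between Fos and Egr1, but 0.27 between Fos and Jun and 0.23 between Fos and Ier3. These 10 points share arrays and normalization and are a description. Among 9875 other genes detected on at least 9 arrays with a range of at least 1, the closest to Fos were Tle5, Crxos, Tesc, Map3k6 and Slc52a3 (r from 0.89 to 0.91). The closest to Egr1 were Cpsf4l, Sdr39u1, Socs3, Timp1 and Bcl3 (r from 0.91 to 0.94). The closest to Jun were Gjb2, Atf3, Slco2a1, Ccn2 and Amotl2 (r from 0.92 to 0.94), and the closest to Ier3 were Tnpo2, Arhgap26, Bhlhe40, LOC381140 and Coq10a (r from 0.95 to 0.96).

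Most other immediate early genes also fell after LIF removal, and many later rose above their starting level. Of 40 such genes, 35 were measured. At day 2, 21 were called lower and 5 higher than at day 0, against 23.3% and 22.2% of all genes, and their median change was -0.43, while that of all genes was -0.00. In AB2.2 the counts were 21 lower and 5 higher, with a median of -0.47 and one of -0.00 for all genes. In PL2F8 they were 19 lower and 4 higher, with a median of -0.36 and one of 0.00 for all genes. The shares of all genes above are for the mean of both lines, and none is given for a single line. Among the 4 lowest changes were Socs3, a feedback inhibitor of the LIF receptor pathway (-4.19 ± 0.07, adjusted p = 9.0e-13), Klf4, a pluripotency factor and LIF target (-2.59 ± 0.09, adjusted p = 3.7e-10), Egr2 (at least 4.8-fold, adjusted p = 2.3e-09) and Ccn1, a matricellular protein (adjusted p = 1.8e-10), which was not detected in PL2F8 at day 2 and at least 7.5-fold lower there. Higher were Gadd45b, a stress-response gene (0.92 ± 0.07, adjusted p = 2.5e-07), the clock gene Per1 (0.44 ± 0.07, adjusted p = 2.3e-04), the survival gene Mcl1 (0.37 ± 0.05, adjusted p = 1.0e-04) and the NF-kB inhibitor gene Nfkbia (0.23 ± 0.08, adjusted p = 0.0339). With median scaling 2 genes were called higher and 23 lower, when more of all genes were called lower than higher. The call of Mcl1 then ended (0.18, adjusted p = 0.0906) and so did that of Nfkbia (0.06, adjusted p = 0.643), which also ended without any of 4 single arrays. The 5 higher calls became 3 without the first PL2F8 array of day 0 or the second PL2F8 array of day 2.

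By day 6 the list had divided. With quantile normalization 20 of the 35 were called higher and 11 lower than at day 0, against 34.0% of all genes in each direction, with a median of 0.28. In AB2.2 alone the counts were 18 and 12. The share of all genes called in that fit is not given here, so these counts are a description. With median scaling the counts in the mean of both lines were 11 and 18. Most of all genes tested were then called lower, and the median of all genes moved by -0.37. Socs3 (-3.02 ± 0.07) and Klf4 (-3.29 ± 0.09) were still low, and Egr2 was not detected in PL2F8, at least 8.7-fold below day 0. Ccn1 had passed its day 0 level (0.91 ± 0.07, adjusted p = 2.2e-07) and Gadd45b was higher by 4.61 ± 0.07 (adjusted p = 2.0e-13). Mcl1 (0.22) and Nfkbia (0.47) were called higher but turned to -0.58 and -0.35 with median scaling and to -0.42 and -0.23 in AB2.2 alone. The line by day interaction was called for 33 of the 35, and for 80.6% of all genes.

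**Figure D4:**
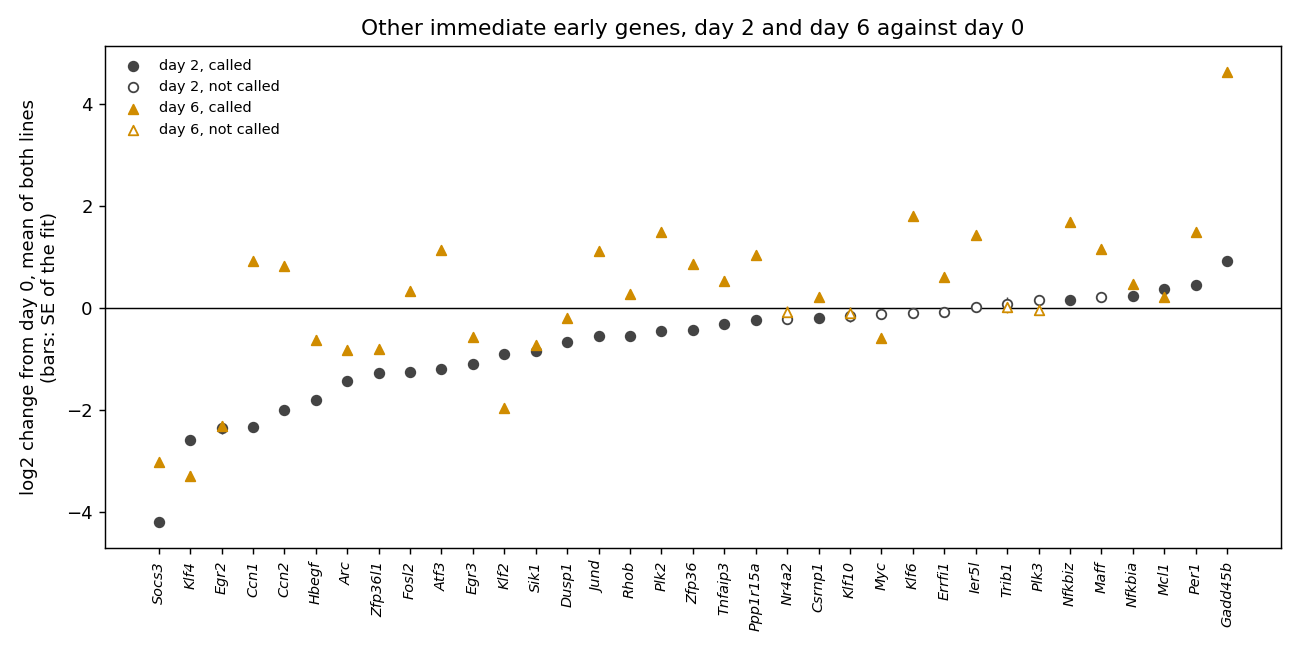
Log2 change from day 0, as the mean of both lines, of the 35 other immediate early genes measured, ordered by their day 2 value, with circles for day 2, triangles for day 6, filled symbols for called changes and error bars for the standard error of the fit. At day 2, 21 lie below 0 and are called, and at day 6, 20 are called above 0 with quantile normalization and 11 with median scaling.

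At day 0 the nearest relatives of Egr1 were also higher in PL2F8, while the other immediate early genes as a list were called in both directions. Egr2 had levels of 6.10 and 5.72 in AB2.2 and 7.99 and 8.17 in PL2F8 at day 0, a difference of 2.17 ± 0.15 (adjusted p = 8.0e-07). Egr3 had 4.77 and 5.09 in AB2.2, the first not detected, and 5.99 and 5.86 in PL2F8, a difference of 1.00 ± 0.10 (adjusted p = 2.0e-05). Without background correction another Egr3 probe was the brighter one, stood for the gene and gave -0.03 (adjusted p = 0.893). Socs3 had 11.22 and 11.20 in AB2.2 and 11.15 and 11.27 in PL2F8, a difference of 0.00 ± 0.10 (adjusted p = 0.997). Of the 35 genes 7 were called higher and 8 lower in PL2F8 at day 0, against 14.3% and 13.1% of all genes, with a median of 0.00. The 8 became 4 with median scaling, 2 without the second AB2.2 array of day 0, and 3 and 5 without the first and the second PL2F8 array. Other relatives of the 7 were not higher: Fosl2 was called lower in PL2F8 (-0.47 ± 0.11, adjusted p = 0.00779) and Jund differed by -0.02 ± 0.11 (adjusted p = 0.92). Egr3, Fosl2 and Jund were picked out after their values were seen, as was the day 0 comparison of Egr2 and Socs3.

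Transcripts of the signalling route to these genes were called in both directions at about the share of all genes. Of 19 measured kinases and factors upstream, 5 were called higher and 4 lower at day 2, against 22.2% and 23.3% of all genes, with a median of 0.01. The kinase gene Braf was higher by 1.34 ± 0.07 (adjusted p = 6.5e-09), and Rps6ka5 (0.39), Mapk8 (0.38) and Mapk3, which encodes ERK1 (0.31), were also called higher. Elk3, a ternary complex factor that partners SRF, was lower (-1.58 ± 0.07, adjusted p = 3.6e-09), as were Stat3 (-1.05 ± 0.07, adjusted p = 1.3e-07), Rps6ka3 (-0.25) and Mapk9 (-0.22). With median scaling the counts were 3 higher and 7 lower, when more of all genes were called lower than higher, and Mapk3 was not called (0.19, adjusted p = 0.133). The Mapk3 call also ended without any of 4 single arrays and the Mapk9 call without either of 2. Srf itself changed by 0.06 ± 0.07 (adjusted p = 0.536). Transcript levels do not report kinase activity.

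Feedback genes of the ERK pathway, which the kinase induces and whose proteins mostly restrain it, had mixed changes at day 2 and were mostly lower at day 6. Of 8 measured, 4 were called lower and 2 higher at day 2, against 23.3% and 22.2% of all genes, and 6 lower and 2 higher at day 6, against 34.0% each way, with medians of -0.30 and -1.04. Etv4, an ETS factor, was lower by 1.22 ± 0.06 at day 2 (a change of -1.22, adjusted p = 7.6e-09) and its change at day 6 was -3.08. Spry4, an inhibitor of the pathway, changed by -1.06 ± 0.08 at day 2 (adjusted p = 3.2e-07), and at day 6 it was not detected in PL2F8, at least 8.5-fold below day 0. Spred1 (-0.54) and Spred2 (-0.41) were also called lower at day 2, and the phosphatase gene Dusp4 (0.77) and Etv5 (0.19) were called higher. The Etv5 call ended with median scaling (0.01, adjusted p = 0.904) and when any of 5 single arrays was left out, and the Spred2 call ended in the authors' matrix values (-0.08, adjusted p = 0.335). At day 0, 3 of the 8 were called lower in PL2F8 and none higher, against 13.1% and 14.3% of all genes, but 1 was called lower without the second AB2.2 array or without the first PL2F8 array of that day.

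Cytoskeletal targets of SRF, which encode actins and actin-binding proteins, were mostly lower at day 2 and mostly higher at day 6. Of 13 measured, 9 were called lower and 1 higher at day 2 (median -0.53), against 23.3% and 22.2% of all genes. At day 6, 11 were called higher and none lower (median 0.69), against 34.0% each way for the mean of both lines. The counts were the same in AB2.2 alone, for which the share of all genes is not given here. With median scaling the counts in the mean of both lines became 6 higher and 4 lower, when most of all genes tested were called lower. Acta2, smooth muscle actin, was called lower at day 2 (adjusted p = 3.2e-12). Its levels in AB2.2 went from 11.09 and 11.14 to 7.77 and 7.83, and in PL2F8 it was not detected at day 2, at least 14-fold below day 0. Tagln2 (-1.20), Tuft1 (-0.77) and Fhl2, which was not detected in PL2F8 at day 2 and at least 1.8-fold lower there, were also called lower, and Flna, which encodes filamin A, was called higher (0.70). At day 0, however, 9 of the 13 were called lower in PL2F8 and 1 higher, against 13.1% and 14.3% of all genes, the opposite direction to Fos and Egr1. Acta2 stood at 11.09 and 11.14 in AB2.2 and at 8.55 and 8.55 in PL2F8, a difference of -2.56 ± 0.10 (adjusted p = 1.1e-08).

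Of 6 measured genes whose proteins can pair with FOS or JUN, 1 was called lower and 1 higher at day 2, against 23.3% and 22.2% of all genes. Jdp2, a repressor of AP-1, was the lower (adjusted p = 5.7e-09), at least 2.8-fold lower in AB2.2, where it was not detected at day 2, and the small MAF gene Mafg was the higher (0.54 ± 0.07, adjusted p = 2.8e-05). Of the corepressors of EGR proteins, Nab1 was called lower (-0.51 ± 0.08, adjusted p = 2.1e-04) and Nab2 changed by -0.30 ± 0.15 (adjusted p = 0.119), with no signal above background in AB2.2 at day 2.

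Markers of the cell state and of other cell types moved with the later days. The summed normalized signal of the 9 pluripotency markers lay between 59410 and 63125 at day 0, and at days 6 and 8 between 20651 and 24405 in AB2.2 and between 30489 and 33520 in PL2F8. The summed normalized signal of 9 visceral endoderm markers rose from 715 and 761 at day 0 to 34767 at day 8 in AB2.2, and lay between 210 and 1559 on all PL2F8 arrays. The summed signal of 8 measured fibroblast markers of 12, which would mark feeder cells, lay between 2483 and 4889 over all arrays, with 2590 and 2665 in AB2.2 and 3171 and 3202 in PL2F8 at day 0, and 5 to 8 of them were detected. Of these 8, 5 were called higher and 1 lower in PL2F8 at day 0, against 14.3% and 13.1% of all genes. Dcn, not detected in AB2.2, was at least 3.4-fold higher (adjusted p = 5.1e-07) and Thy1 was higher by 1.34 ± 0.10 (adjusted p = 2.1e-06). Both were named after their values were seen. Col1a1 was the one called lower (-0.82 ± 0.19, adjusted p = 0.00767), and Timp1 (-0.12) and Mmp2 (0.10) were not called. Of the 9 visceral endoderm markers, 5 were called lower in PL2F8 at day 0 and none higher, against the same shares of all genes. In AB2.2 the 8 mesoderm markers summed to 82 and 94 at day 0 and to between 989 and 1216 at days 6 and 8. In PL2F8 they went from 67 and 73 to between 924 and 1172 on the dim arrays. Of the 8 markers, 2 and 3 were detected on the PL2F8 arrays of day 0, 5 and 4 at day 6 and 2 at day 8. The sums of all these lists are quantile normalized, and none was made with median scaling. The part of these cell types in the levels of the 7 genes was not tested.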

How the data were processed

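Per the file headers, the deposited probe table held, for each array, the mean bead signal as an unnormalized intensity, with its detection p-value, on 45281 lines. In 445 lines the fields were shifted, and these were left out. The authors' series matrix held intensity values by gene name, from the values already normalized between arrays (how is not given in the sources used here). Gene names were given to probes through the 30848 matrix lines, by likeness of the values over the 18 arrays. Signals were background corrected (normexp with a background estimated through the detection p-values, offset 16) and quantile normalized on the log2 scale with limma 3.58.1 in R 4.3.3. Probes detected (detection p under 0.05) on at least 2 arrays were kept, and the brightest probe stood for each gene. A linear model with a mean for each line and day had 8 residual degrees of freedom. The spread is pooled over groups, so the single arrays of day 8 are assumed to vary like the others. Between the paired PL2F8 arrays of day 6 the SD of the difference over genes was 0.333, against 0.152 to 0.191 in the other pairs. The pooled standard errors may therefore be too small for PL2F8 at days 6 and 8. The number of arrays limits the precision. P-values were moderated, given a Benjamini-Hochberg adjustment over all genes of a comparison, and called below 0.05. In data simulated for 16110 genes, 100% of 2-fold changes at day 2 and 74% of 2-fold line by day interactions were recovered. The simulation used equal scatter on all arrays, 100 changed genes of each size and interactions at a single day of PL2F8. Far more genes were called in the real data, so these rates do not describe them.

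The 7 genes, the 10 gene lists and the tests were chosen with earlier results of these data known. Named were all 7 genes, the 4 highest and 4 lowest called changes of each list at day 2 against day 0, and the 5 genes most like Fos, Egr1, Jun and Ier3. Replicate numbers did not pair the arrays (correlations of deviations between -0.03 and 0.04 over 28 pairs of groups). The alternatives were no background correction, median scaling, an offset of 50, other filters, the mean of probes, the authors' matrix, a replicate block, array weights, and leaving out single arrays or the 3 dim ones.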

Additional observations from a re-analysis of the deposited data

Results flagged for a closer look

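The courses over days differed between AB2.2 and PL2F8 for each of the 7 genes by the moderated F test of the line by day interaction, with adjusted p-values of 2.2e-07 for Fos, 2.2e-04 for Fosb, 1.5e-07 for Jun, 2.2e-08 for Junb, 4.0e-08 for Egr1, 0.00171 for Ier2 and 2.1e-09 for Ier3. The same test was called for 80.6% of all genes. For Ier2 the difference rested on the PL2F8 arrays of day 2, the only ones on which it was detected. Through these arrays alone Ier2 passed the detection filter, so its call is no independent support. All 7 calls were also made without the 3 dim PL2F8 arrays. No group held enough arrays to be tested for outlying arrays.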

How the results depend on the processing

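The 7 counts of calls (6 line means, 24 single-day line differences, 7 interactions and 5 changes from day 4 to day 8 among the 7 genes, and 26, 31 and 33 calls among the other immediate early genes) stayed within 1.5 times under every alternative run, except that 15 single-day line differences were called both without the 3 dim PL2F8 arrays and when normalized without them, since days 6 and 8 are then missing. These counts pool both directions: from day 4 to day 8 the 5 calls were all higher, whereas the 4 calls with median scaling were Fosb higher and Junb, Egr1 and Ier3 lower. Leaving out single arrays gave 4 to 6, 20 to 26, 7, 5 to 6, 23 to 28, 30 to 31 and 31 to 34. The normalization without the dim arrays was chosen after seeing the data. The single-day and interaction counts of the main fit include Ier2, which passed the filter only through the PL2F8 arrays of day 2. The replicate numbers do not pair the arrays, and with them as a replicate block the counts were again 6, 24, 7, 5, 26, 31 and 33.

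With median scaling these values changed sign. For PL2F8 minus AB2.2, Fos was -0.03 over days, -0.41 at day 6 and -2.77 at day 8, Junb was -0.83, -1.11 and -2.40, and Ier3 was -0.54, -1.09 and -1.69. From day 4 to day 8, Fos was -0.02, Junb -0.63, Egr1 -0.92 and Ier3 -0.85. From day 0 in PL2F8, Jun was -1.04 and Junb -1.91 at day 6, and Junb was -3.64 and Ier3 -1.09 at day 8. In both lines Ier3 was -0.01 at day 2 and -0.25 at day 8. At day 6 against day 0, Mcl1 was -0.58, Nfkbia -0.35, Mapk3 -0.09, Rps6ka3 -0.52, Flna -0.13, Acta2 -0.54, Tagln2 -0.61 and Mafg -0.09. All genes called at day 6 went from 5475 higher and 5470 lower to 2664 and 9267, and at day 2 from 3577 and 3756 to 2442 and 5328.

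Other settings turned fewer values, but many moved in size. Of 254 values and counts followed, 67 moved in size with an offset of 50. The number was 64 in the authors' matrix and 59 without background correction. Fold changes above are those of the main fit, with an offset of 16, and their sizes hold for that setting. Without the dim arrays the mean over days was -0.12 for Junb and 0.03 for Egr1, and the day 6 changes were -0.42 for Mcl1 and -0.23 for Nfkbia. Normalized without them, Junb was -0.14, Mcl1 -0.41 and Nfkbia -0.24. Acta2 at day 6 was -0.12 with the mean of probes, and Egr3 at day 0 was -0.03 without background correction. The median difference of all genes at day 8 was 0.02 with no filter and 0.03 in the authors' matrix. Detection on at least 9 arrays removed Fosb and Ier2. The cause of these changes was not tested. Signal over background limits Fosb, Ier2 and the PL2F8 values of Jun.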
